A study of Mus musculus with 8 samples.

Results

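The genes described here are 10 mouse genes for AP-1 subunits and immediate early transcription factors: Fos, Fosb, Fosl1, Fosl2, Jun, Junb, Jund, Atf3, Egr1 and Maff. They were picked out by gene symbol, from a list drawn up with earlier results of these data known, among the 55558 gene features of the count table, and all 10 had enough counts to be tested. The series set a pair of mouse kidney lines side by side. mK4 is labelled as metanephric mesenchyme that has differentiated towards epithelium, and mK3 as uninduced metanephric mesenchyme, the embryonic tissue from which nephrons form. Both lines are labelled wild type, were left untreated and were kept in DMEM with fetal bovine serum, a source of growth factors. RNA was sequenced from 3 libraries of each line, and open chromatin was mapped by ATAC-seq, in which a transposase cuts accessible DNA, in 1 library of each line. Each state is represented by a single cell line, so differences of state and of line cannot be told apart. Nothing in the labels tells if the 3 RNA libraries were grown apart, and the p-values then cover the library-to-library spread alone, which can be technical.

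AP-1 is a dimer of basic leucine zipper proteins. A Fos family protein (FOS, FOSB, FOSL1 or FOSL2) pairs with a Jun family protein (JUN, JUNB or JUND), since Fos proteins do not form stable dimers with each other while Jun proteins can. The dimers bind short palindromes related to TGANTCA or to the cAMP response element TGACGTCA. ATF3 is a stress-induced leucine zipper protein that pairs with Jun proteins, and MAFF is a small Maf protein that lacks a transactivation domain and pairs with NFE2L2, BACH1 and other zipper proteins. EGR1 is a zinc finger factor of another family. Most of these genes are immediate early genes: serum, growth factors or stress switch them on within minutes through serum response factor and MAP kinases, without new protein synthesis, and the pulse is short because the RNAs are unstable.

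The 150 bases before the annotated start are shown for the 6 members that were called between the lines, as this stretch holds known control sites of such genes. The sequences are from RefSeq, build GRCm38.p6, and run 5′ to 3′ on the strand of the gene. The start is that of the promoter table. For Fosb it lies inside the annotated gene, so that 73 of the bases shown fall within the gene span. For Maff the second of 3 starts is shown, and all its bases lie within the gene span. It is the Maff start with TGACGTCA and GCGTGGGCG, while the first Maff start had none of the motifs searched. Capitals mark the motifs searched on both strands: TGACG (the core of the cAMP response element, written CGTCA on the other strand), the full element TGACGTCA, the TATA box letters TATAAA and the EGR1 site GCGTGGGCG.
Fos: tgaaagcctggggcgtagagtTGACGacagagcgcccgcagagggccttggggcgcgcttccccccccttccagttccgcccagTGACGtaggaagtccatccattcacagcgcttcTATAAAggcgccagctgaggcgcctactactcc
Fosb: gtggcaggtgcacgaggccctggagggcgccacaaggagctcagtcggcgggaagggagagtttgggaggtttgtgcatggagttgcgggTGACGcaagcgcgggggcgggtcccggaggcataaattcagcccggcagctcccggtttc
Fosl2: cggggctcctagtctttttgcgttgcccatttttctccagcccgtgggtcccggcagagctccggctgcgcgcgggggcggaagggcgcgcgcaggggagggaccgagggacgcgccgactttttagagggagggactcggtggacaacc
Junb: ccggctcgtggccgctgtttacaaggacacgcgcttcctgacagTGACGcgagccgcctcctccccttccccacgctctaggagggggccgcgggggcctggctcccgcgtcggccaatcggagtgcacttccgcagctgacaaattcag
Atf3: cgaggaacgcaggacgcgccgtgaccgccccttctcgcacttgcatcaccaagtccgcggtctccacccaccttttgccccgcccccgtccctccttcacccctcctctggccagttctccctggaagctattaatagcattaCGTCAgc
Maff, second start: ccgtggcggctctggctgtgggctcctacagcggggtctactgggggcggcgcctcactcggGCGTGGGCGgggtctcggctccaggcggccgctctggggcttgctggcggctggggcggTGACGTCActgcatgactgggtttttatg

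These stretches lie at chr12:85473740-85473889 on the plus strand for Fos, chr7:19310046-19310195 on the minus strand for Fosb, chr5:32136322-32136471 on the plus strand for Fosl2 and chr8:84978749-84978898 on the minus strand for Junb. Those of Atf3 and of the second Maff start lie at chr1:191183334-191183483 on the minus strand and chr15:79347370-79347519 on the plus strand. Of the 10 members, 8 had an entry in the promoter table. Windows of 250 bases before and 50 bases after a start were searched for each motif. The letters TGANTCA were in 7.81% of all 32851 windows and in none of those of the 8 members. The CArG box, the site of serum response factor, was in 1.63% of windows and in none of those of the 8. Bases beyond these windows were not searched, so a site further upstream would be missed, and Fosl1 and Egr1 had no window. TGACGTCA was in 1.79% of windows and GCGTGGGCG in 0.612%, and Maff was the member with either. In Maff, TGACGTCA ran from base -29 to -22 and GCGTGGGCG from -88 to -80, counted back from the start. TGACG, which also lies inside TGACGTCA, was in 20.8% of windows and in 5 of the 8 members, Fos, Fosb, Junb, Atf3 and Maff. A share of windows is not a share of genes, and Maff counts by any of its 3 windows. By gene, 3961 tested genes had TGACG and 7943 did not. In Fos, 2 copies ran from -129 to -125 and from -66 to -62. TATAAA was in 13.6% of windows, and Fos carried it from -33 to -28 and Junb from 1 to 6, just after the start. Searches for TGACG and for TATAAA and TGACATCA were added after the sequences had been seen. TGACATCA, which differs from the cAMP response element in its middle, was in 3.62% of windows and lay at -45 to -38 in Jun and before the third start of Maff.

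Of the 10 members, 3 were higher in mK4 (Fos, Fosb and Junb), 3 were lower (Fosl2, Atf3 and Maff) and 4 were not called (Fosl1, Jun, Jund and Egr1). Calls were made at an adjusted p under 0.05 in edgeR's quasi-likelihood test with Benjamini-Hochberg adjustment over all 20405 tested genes. In that fit 40.3% of all genes were called, 20.8% higher and 19.5% lower, so a share of 6 in 10 members stood beside a background in which calls were common. The libraries of the lines did not overlap for 7 members, the 6 called ones and Jund, against 56.1% of all tested genes. The median log2 fold change, mK4 over mK3, was 0.04 over the members and 0.02 over all tested genes, with changes in both directions. The sizes spread widely: 6.26% of tested genes changed more in either direction than Fosb and 8.37% more than Fos, while 91.9% changed more than Fosl1. In bulk RNA, fewer cells that express a gene and less RNA per cell cannot be told apart.

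**Figure D1:**
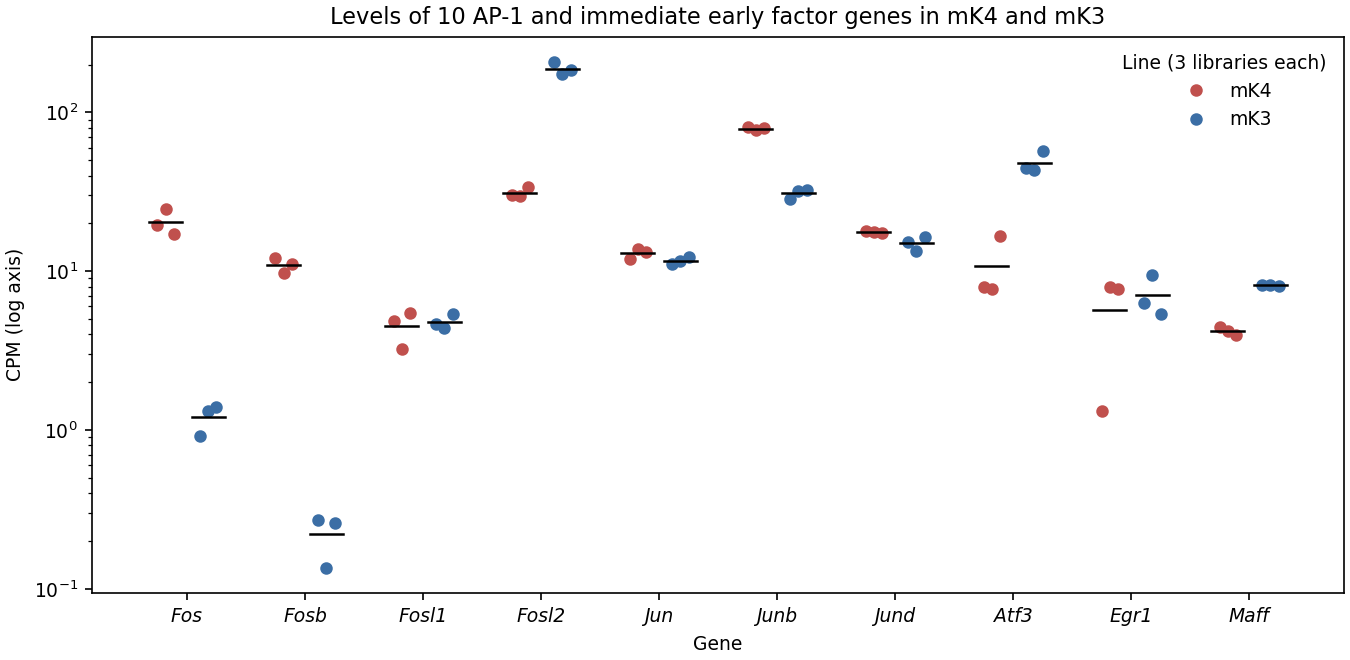
CPM on a log axis of each of the 10 genes in the 3 mK4 libraries (red) and the 3 mK3 libraries (blue), with a bar at the mean. Fos and Fosb sit far higher in mK4, Fosl2 and Atf3 far lower, and in Egr1 1 mK4 library lies at 1.33 CPM, below the others.

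The Fos family held the widest differences. Fos, the founding member and the classical serum-response gene, lies on chromosome 12 from 85473890 to 85477274. Its level, in CPM, counts scaled to library size by TMM, was 19.6, 24.6 and 17.2 in mK4 libraries 1 to 3, against 0.919, 1.32 and 1.39 in mK3. The lowest mK4 library stood far above the highest mK3 library, and the values behind these levels were 2578 to 3748 counts in mK4 and 132 to 175 counts in mK3. Fos averaged 20.5 ± 3.80 CPM in mK4 and 1.21 ± 0.256 CPM in mK3 (SD, n = 3 each), 16.9-fold higher (log2 fold change 4.08, SE 0.25, adjusted p = 8.3e-05 by edgeR's quasi-likelihood test).

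Fosb encodes a close relative of FOS and lies on chromosome 7 from 19302696 to 19310118. It had 12.1, 9.69 and 11.1 CPM in the mK4 libraries, against 0.271, 0.136 and 0.258 CPM in mK3. The mK3 levels rested on 39, 18 and 32 counts, near the low end of what was measured, and the lines did not overlap. Fosb averaged 11.0 ± 1.21 CPM in mK4 and 0.222 ± 0.0745 CPM in mK3 (SD, n = 3 each), and its log2 fold change of 5.62 (95% interval 4.82 to 6.42, adjusted p = 7.6e-05) was the largest of the 10.

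Fosl2 went the other way. It encodes FRA-2, a Fos protein without the strong transactivation domain of FOS and FOSB, and lies on chromosome 5 from 32136472 to 32157840. Its level was 30.2, 29.6 and 33.7 CPM in mK4, against 208, 174 and 185 CPM in mK3. Every mK4 library lay below every mK3 library by a wide margin, with little spread within a line. The mean was 31.1 ± 2.19 CPM in mK4 and 189 ± 17.3 CPM in mK3 (SD, n = 3 each), 6.06-fold lower in mK4 (log2 fold change -2.60, SE 0.10, adjusted p = 2.2e-05).

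Fosl1, which encodes FRA-1 and lies on chromosome 19 from 5447698 to 5455938, was not called. It had 4.86, 3.22 and 5.48 CPM in mK4, against 4.64, 4.38 and 5.39 CPM in mK3, and the lines overlapped. Its log2 fold change was -0.09, with a 95% interval from -0.68 to 0.50 (adjusted p = 0.808 in edgeR's quasi-likelihood test). Changes of a size within that interval cannot be told from none. The sign was not fixed: the log2 fold change was 0.11 without mK4 library 2 and 0.001 without mK3 library 3. In RefSeq Fosl1 overlaps Ccdc85b, and no source used here tells how reads in the overlap were counted; none of the other 9 members overlaps a RefSeq gene.

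With Fos and Fosb up and Fosl2 down, the make-up of the Fos family's RNA differed between the lines. Shares of the family's counts compare the lines with each other and not the genes, since the 4 transcripts differ in length. Fos took 30.5% ± 5.68 of these counts in mK4 and 0.631% ± 0.174 in mK3. Fosb took 16.3% ± 1.86 in mK4 and 0.112% ± 0.0319 in mK3, and Fosl2 took 46.4% ± 3.10 in mK4 and 96.8% ± 0.468 in mK3 (SD, n = 3 each). The family's summed level was 66.7 to 67.4 CPM in mK4, below the 179.5 to 213 CPM of mK3, and this sum of counts, most of it Fosl2 in mK3, is not corrected for transcript length. The count ratio of Fos to Fosl2 was 0.649, 0.831 and 0.510 in the mK4 libraries, against 0.00443, 0.00761 and 0.00753 in mK3, a difference of 6.68 in mean log2 ratio. A ratio within a library does not depend on how libraries are scaled, and these ratios did not overlap. The ratio of Fosb to Fos was also higher in mK4, at 0.618, 0.394 and 0.645, against 0.295, 0.103 and 0.185 in mK3.

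**Figure D2:**
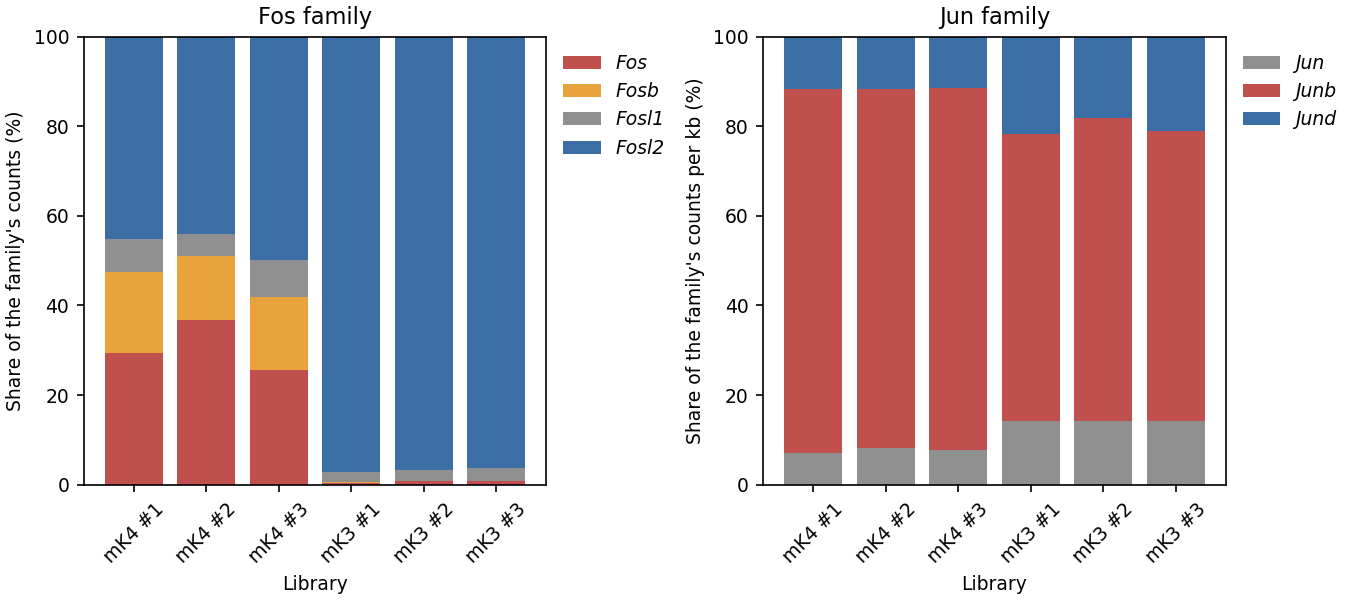
Left, the percentage of the Fos family's counts taken by each gene in the 3 mK4 and the 3 mK3 libraries; right, the percentage of the Jun family's counts per kb. Fosl2 fills 96.3% to 97.3% of the bar in each mK3 library and 44.1% to 49.95% in each mK4 library, and Junb is the largest part of the Jun family in all 6.

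In the Jun family the difference lay in Junb. JUNB can pair with any Fos protein and is a weaker activator than JUN at many sites. Junb, on chromosome 8 from 84976909 to 84978748, had 80.4, 77.4 and 79.4 CPM in mK4, against 28.6, 31.8 and 32.3 CPM in mK3. The libraries of each line lay close together and the lines were far apart. Junb averaged 79.1 ± 1.49 CPM in mK4 and 30.9 ± 2.01 CPM in mK3 (SD, n = 3 each), 2.56-fold higher in mK4 (log2 fold change 1.35, SE 0.08, adjusted p = 7.9e-05).

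Jun, which encodes the strongest activator of the family and lies on chromosome 4 from 95049036 to 95052222, was not called. It had 11.9, 13.8 and 13.3 CPM in mK4, against 11.1, 11.6 and 12.2 CPM in mK3, and the lines overlapped. Its log2 fold change of 0.16 had a 95% interval from -0.13 to 0.44 (adjusted p = 0.337), which leaves out a 2-fold change in either direction. Jund, the member that is usually present in resting cells, lies on chromosome 8 from 70697739 to 70700616. It had 17.99, 17.5 and 17.5 CPM in mK4, against 15.2, 13.4 and 16.3 CPM in mK3. All mK4 libraries lay above all mK3 libraries, but the log2 fold change of 0.24 (95% interval -0.04 to 0.52) did not pass the test (adjusted p = 0.147).

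Because the Jun genes have no introns, their annotated span was taken as the transcript length, so that levels could be set between them. This holds only where the annotated ends are the ones used, which was not tested. No peak covered the annotated start of Jund in either line, and a shorter Jund transcript would raise its level per kb. Per kb, Junb stood at 43.0 ± 0.810 CPM, Jund at 6.14 ± 0.0923 and Jun at 4.07 ± 0.305 in mK4. In mK3 the levels per kb were 16.8 ± 1.09 CPM for Junb, 5.20 ± 0.515 for Jund and 3.65 ± 0.177 for Jun (SD, n = 3 each). The order was Junb, Jund, Jun in both lines. On this scale Junb took 80.8% ± 0.617 of the family's counts in mK4 and 65.5% ± 1.89 in mK3, Jund 11.6% ± 0.134 in mK4 and 20.3% ± 1.87 in mK3, and Jun 7.66% ± 0.648 in mK4 and 14.2% ± 0.0724 in mK3. The family's summed level, not per length, was 108.7 to 110.2 CPM in mK4 and 54.9 to 60.8 CPM in mK3. The count ratio of Junb to Jun was 6.75, 5.62 and 5.97 in mK4, against 2.58, 2.74 and 2.65 in mK3, with no overlap.

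Pairs across the families shifted too, as ratios of RNA; protein was not measured. The count ratio of Fos to Jun was 1.65, 1.79 and 1.29 in mK4, against 0.0829, 0.114 and 0.114 in mK3. For Fosl2 to Jun it was 2.53, 2.15 and 2.53 in mK4, against 18.7, 15.0 and 15.1 in mK3. Neither ratio overlapped between the lines, and they differed in opposite directions.

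Atf3, on chromosome 1 from 191170296 to 191183333, encodes a factor that cells make under stress and that often represses its targets. It had 7.96, 7.72 and 16.7 CPM in mK4, against 44.7, 43.4 and 56.8 CPM in mK3. Although mK4 library 3 stood 2.13-fold above the mean of the other 2, it stayed below every mK3 library. Atf3 averaged 10.8 ± 5.12 CPM in mK4 and 48.3 ± 7.42 CPM in mK3 (SD, n = 3 each), 4.48-fold lower in mK4 (log2 fold change -2.16, SE 0.34, adjusted p = 0.0036).

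Maff, on chromosome 15 from 79346621 to 79359078, had 4.44, 4.22 and 3.94 CPM in mK4, against 8.23, 8.15 and 8.04 CPM in mK3. The libraries of each line were close to each other and the lines did not overlap. The mean was 4.20 ± 0.252 CPM in mK4 and 8.14 ± 0.0910 CPM in mK3 (SD, n = 3 each), 1.94-fold lower in mK4 (log2 fold change -0.95, SE 0.14, adjusted p = 0.0024).

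Egr1, whose product binds GC-rich sites and which serum induces with Fos, lies on chromosome 18 from 34861207 to 34864956. It had 1.33, 7.95 and 7.77 CPM in mK4, against 6.32, 9.42 and 5.35 CPM in mK3. The lines overlapped, and mK4 library 1, with 181 counts against 1210 and 1166 in the other 2, lay far below all others. The mean was 5.68 ± 3.77 CPM in mK4 and 7.03 ± 2.13 CPM in mK3 (SD, n = 3 each), with a log2 fold change of -0.31 (95% interval -1.88 to 1.26, adjusted p = 0.748). Without mK4 library 1 the sign turned and the log2 fold change was 0.16 (adjusted p = 0.718). The interval is wide enough to hold a 2-fold change in either direction.

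**Figure D3:**
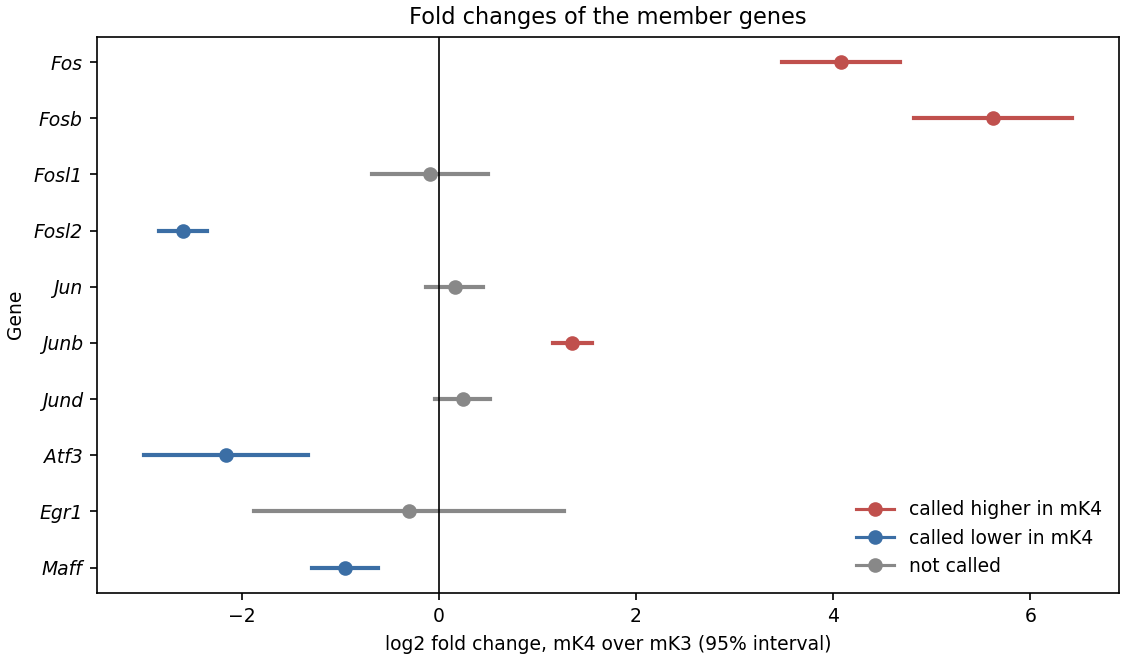
Log2 fold change, mK4 over mK3, of each gene with its 95% interval; red marks genes called higher in mK4, blue those called lower and grey those not called. The intervals of Fos and Fosb lie above 3, that of Egr1 runs from -1.88 to 1.26, and those of Fosl1, Jun and Jund also take in 0.

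The members also differed in how steady they were within a line. The SD of log2 CPM over the mK4 libraries was 1.47 for Egr1 and 0.63 for Atf3, larger than for 96.9% and 90.5% of the 15039 tested genes that averaged at least 1 CPM. It was 0.03 for Junb and 0.02 for Jund, smaller than for most such genes, whose median was 0.17. In mK3 the median SD was 0.19, and Maff had 0.02, Egr1 0.42 and Fosb, at its low counts, 0.52. Egr1 in mK4 library 1 was at 0.169 of the mean of the other 2 libraries. Among 23 other immediate early genes, 2 were below 0.5 of that mean in this library, Nr4a3 at 0.379 and Klf10 at 0.378, and the median ratio of the 23 was 0.991. In mK4 library 3, too, 2 of the 23 were below 0.5, and Nr4a3 was lower still there, at 0.231, with library 2 at 5.61. Zfp36, whose product destabilises short-lived RNAs, had 225 counts in mK4 library 1, against 864 and 899 in libraries 2 and 3. This gene was picked out after its values had been seen. Fos and Fosb, in mK4 library 1 at 0.937 and 1.17 of the mean of the other 2, did not share the low value of Egr1.

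Genes whose profile over the 6 libraries was closest to that of a member were found by the root mean square difference of centred log2 CPM, a description of likeness and no more. For Fos they were Foxp2 (0.17), Gmpr (0.20) and Tenm3 (0.21), and for Fosb Gcnt1 (0.17), 2900026A02Rik (0.24) and Car9 (0.27). Fosl2 was most like Ccnd2 (0.07), Thbs1 (0.08) and Zyx (0.10), and Junb like Wdr73 (0.03), Slc35a3 (0.04) and Odf2l (0.04). For Atf3 the closest were Coro2b (0.16), Disp1 (0.18) and H2-Q1 (0.22), and for Maff Ppp1cb (0.02), Iars (0.03) and Ngdn (0.03). For the members that were not called, they were Tlnrd1, Hspbap1 and Phldb1 for Fosl1, Bcas3, Pot1b and Parp2 for Jun, Rubcn, Ciao2b and Dennd5a for Jund, and Rora, Rundc3a and Gm42688 for Egr1, with differences from 0.02 (Rubcn) to 0.29 (Gm42688).

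Open chromatin at the members was mapped in 1 library of each line. With no replicate there is no test, and fold enrichment over background, the authors' own value, is used within a line only. A peak lay within 1 kb of an annotated start of 9 members in mK4 and of 8 members in mK3, and the 8 had one in both lines. Among 11904 tested genes with a start in the promoter table, 69.8% had such a peak in mK4 and 63.6% in mK3. For Fosl1 and Egr1, which have no entry in the promoter table, either end of the gene was used. The counts of members thus follow a wider rule than these percentages. Of the 8 members with an entry, all but Fosb had such a peak in both lines. The member with one in mK4 alone was Fosl1. Within the genes and 10 kb on either side, mK4 had 32 peaks and mK3 had 22, and 21 of each shared at least 1 bp with a peak of the other line. This is 65.6% of the mK4 peaks and 95.5% of the mK3 peaks at the members, against 47.0% of all 34710 peaks in mK4 and 71.9% of all 22477 peaks in mK3. The full lists also take in peaks far from genes, and peaks near other genes were not counted apart. The higher shares are therefore not shown to be a trait of the members. A total of 11 mK4 peaks and 1 mK3 peak at the members had no partner.

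The start of Fos was covered by a peak in both lines, and its RNA differed 16.9-fold. Whether open chromatin bears on the RNA differences of the members was not tested. The mK4 peak ran from 85473419 to 85474676 with a fold enrichment of 5.10, and the mK3 peak from 85473467 to 85474215 with a fold enrichment of 5.38. Their summits lay 2 and 6 bases after the start, and all 250 bases before the start, which hold the TGACG and TATAAA shown above, were inside both peaks. Of the peaks of the same line, 57.5% had a lower fold in mK4 and 72.8% in mK3. A further peak about 12 kb downstream, with its summit 12254 bases from the start in mK4 and 12138 in mK3, was also in both lines.

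Fosb, with the largest RNA difference, had no peak within 1 kb of its start in either line. The nearest began 1123 bases past the start of the promoter table in mK4 and 1046 bases past it in mK3, just beyond the limit. A second one followed in each line. Within 10 kb mK4 had 5 peaks at Fosb and mK3 had 3, each of which had a partner in mK4. At Fosl2, a peak had its summit 649 bases before the start in mK4 and 689 bases before it in mK3, so the bases shown above lay outside the peak in both lines.

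At Junb, a peak covered the start in both lines, with a fold enrichment of 3.26 in mK4 and 2.69 in mK3, lower than most peaks of its line: 11.3% of mK4 peaks and 2.53% of mK3 peaks were lower still. A second Junb peak upstream had a fold enrichment of 3.12 in mK4, above 8.78% of mK4 peaks, and 4.93 in mK3, above 65.5% of mK3 peaks. Jun and Atf3 had a peak over the start in both lines, and Atf3 a further one in mK4 with its summit 760 bases inside the gene. Jund had none over the start itself, and its peak began 609 bases inside the gene in mK4 and 610 bases inside it in mK3. The strongest start peak of the members by fold enrichment in mK4 was that of Egr1, at 7.77, while in mK3 it was that of Atf3, at 6.06. Fosl1 had a peak at a gene end in mK4 alone, with a fold enrichment of 2.74 and a -log10 q of 4.12, and 2.58% of mK4 peaks had a lower fold. At Maff, the middle of its 3 annotated starts, the one with TGACGTCA and GCGTGGGCG, lay in a peak in both lines. The first start lay in no peak of either line. The third start lay in a peak in mK3, from 79348194 to 79348410, which had no partner in mK4. This mK3 peak was weak, with a fold enrichment of 2.48 and a -log10 q of 3.95, and 0.578% of mK3 peaks had a lower fold. In mK4 the nearest peak ran from 79347784 to 79348150.

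**Figure D4:**
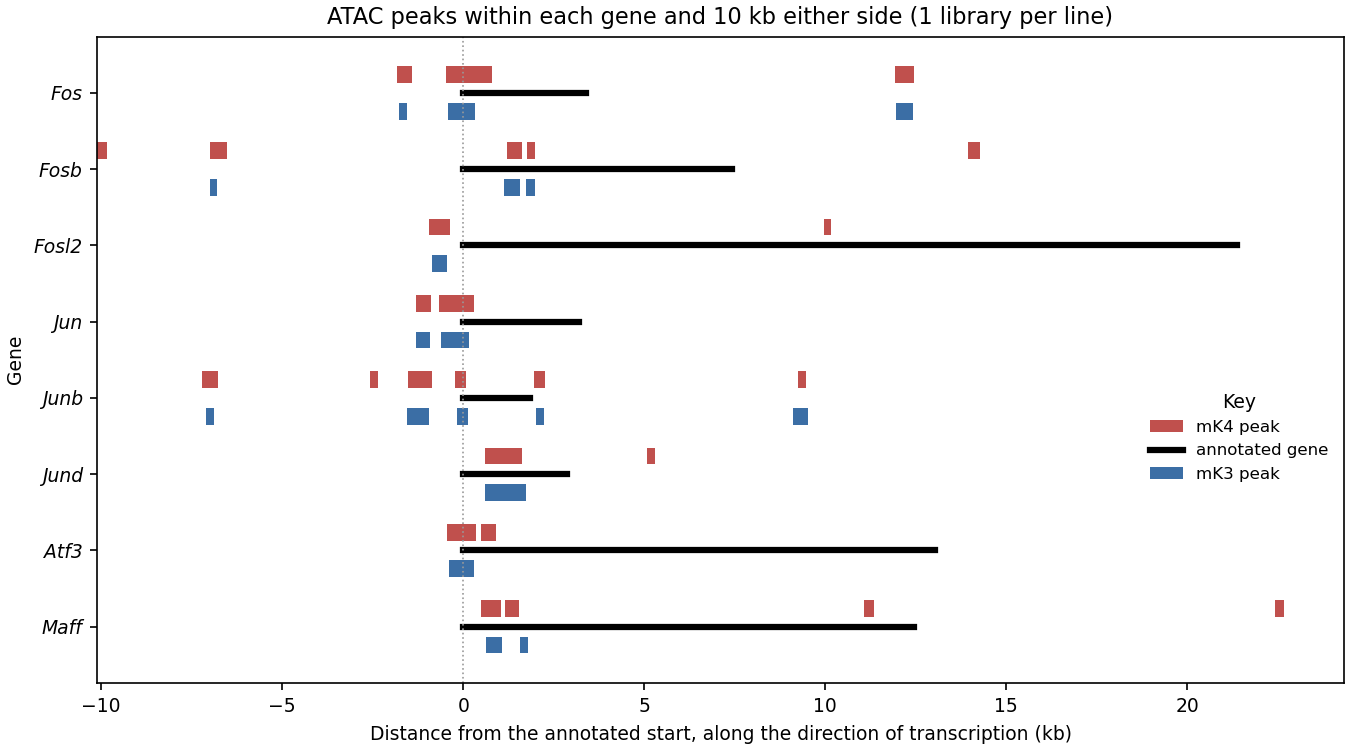
ATAC peaks of mK4 (red, above) and mK3 (blue, below) at the 8 members with a known strand, 1 library per line. Distance in kb is from the upstream end of the annotated gene (black bar), which for Fosb lies before the start of the promoter table. The peaks at Fos, Jun, Junb and Atf3 lie over the start in both lines, and Fosb has none there.

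Genes that work with or upstream of the members were also counted, from lists chosen with earlier results of these data known. Beside the list counts below stand the values over all tested genes: 20.8% higher, 19.5% lower and a median log2 fold change of 0.02. Among 16 tested leucine zipper partners and Maf genes, 1 was higher, 5 were lower and 10 were not called, with a median log2 fold change of -0.56. Maf, a large Maf factor, was higher at 20.8 ± 1.37 CPM in mK4 and 15.0 ± 0.923 CPM in mK3 (adjusted p = 0.015). Of the partners of small Maf proteins, 2 were lower. Nfe2l2, the regulator of oxidative stress genes, had 21.2 ± 1.16 CPM in mK4 and 35.8 ± 0.680 CPM in mK3 (adjusted p = 0.00093), and Bach1, a repressor of the same sites, had 33.5 ± 1.28 CPM in mK4 and 65.1 ± 7.80 CPM in mK3 (adjusted p = 0.00084; SD, n = 3 each). Jdp2, which encodes a repressive partner of Jun proteins, was lower, with a log2 fold change of -0.94. Nfe2l1 and Bach2, which also pair with small Maf proteins, were not called (adjusted p = 0.299 and 0.460).

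Other immediate early genes went both ways as the members did: of 23 tested, 5 were higher, 8 lower and 10 not called, with a median of -0.20. Ier2 was higher at 6.21 ± 0.639 CPM in mK4 and 1.91 ± 0.174 CPM in mK3 (adjusted p = 0.0007), and Btg2, an antiproliferative gene, at 14.6 ± 0.449 CPM in mK4 and 7.67 ± 0.332 CPM in mK3 (adjusted p = 0.0011). Egr2, Nr4a2 and Trib1 completed the 5, with log2 fold changes of 2.37, 1.27 and 0.92. Ccn2, a matricellular growth factor gene, was lower at 6.80 ± 0.341 CPM in mK4 and 71.1 ± 0.565 CPM in mK3 (adjusted p = 7.25e-06), and Rhob, a small GTPase gene, at 10.7 ± 0.537 CPM in mK4 and 37.6 ± 2.58 CPM in mK3 (adjusted p = 6.4e-05; SD, n = 3 each).

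Of 8 genes listed as serum response factor and its partners, 6 were lower, 1 was higher and 1 was not called, with a median of -0.62. The gene not called was Elk4, with a log2 fold change of 0.04. Whether the listed genes act on Fos or Egr1 in these lines was not tested. Srf itself had 4.53 ± 0.476 CPM in mK4 and 11.6 ± 2.59 CPM in mK3. Mrtfa, the actin-regulated coactivator, had 27.5 ± 2.01 CPM in mK4 and 81.2 ± 15.1 CPM in mK3 (adjusted p = 0.00056), and Fhl2, a LIM-domain cofactor, had 485 ± 23.4 CPM in mK4 and 1064 ± 71.5 CPM in mK3 (adjusted p = 9.2e-05). Tead1, a factor of the Hippo pathway, was higher by 0.39 on the log2 scale (adjusted p = 0.033).

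Of 19 MAP kinase pathway genes, 3 were higher, 8 lower and 8 not called, with a median of -0.06. Map2k6, which activates p38, was higher at 57.6 ± 6.94 CPM in mK4 and 13.4 ± 0.326 CPM in mK3 (adjusted p = 5.6e-05), and Rps6ka1, a kinase below ERK, at 59.0 ± 6.30 CPM in mK4 and 21.8 ± 2.18 CPM in mK3 (adjusted p = 0.00028). Map2k1, which activates ERK, was lower at 263 ± 8.71 CPM in mK4 and 426 ± 15.9 CPM in mK3 (adjusted p = 0.00026), and Rps6ka5, a histone kinase at immediate early genes, at 57.3 ± 5.99 CPM in mK4 and 129 ± 3.55 CPM in mK3 (adjusted p = 0.00023; SD, n = 3 each). Mapk10 was at 0 in all mK4 libraries and at least 11.0-fold lower there, against a floor of 3 counts per library.

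Of 16 negative feedback genes, 6 were higher, 5 lower and 5 not called, with a median of 0.10; scaled by library total alone, 7 were higher and 2 lower. Those higher included Dusp6, an ERK phosphatase gene that ERK itself induces, at 34.3 ± 1.78 CPM in mK4 and 4.81 ± 0.903 CPM in mK3 (adjusted p = 7.5e-05), and Dusp4, at 40.0 ± 2.16 CPM in mK4 and 11.8 ± 3.80 CPM in mK3 (adjusted p = 0.0017). Nab2, a corepressor of EGR1, had a log2 fold change of -1.42, and Zfp36l2, an RNA-destabilising gene, had a log2 fold change of -0.75.

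Textbook targets of AP-1 did not move as a block either. Of 19 tested, 4 were higher, 9 lower and 6 not called, with a median of -0.52. Ccnd1, the cyclin of G1 phase, was higher at 27.6 ± 1.12 CPM in mK4 and 7.70 ± 0.417 CPM in mK3 (adjusted p = 6.5e-05), and Spp1, osteopontin, at 379 ± 19.7 CPM in mK4 and 152 ± 9.70 CPM in mK3 (adjusted p = 6.4e-05). Hmox1, the haem-degrading enzyme gene, was lower at 8.65 ± 0.853 CPM in mK4 and 59.6 ± 5.90 CPM in mK3, and Ccl2, a monocyte chemokine gene, at 21.2 ± 1.34 CPM in mK4 and 163 ± 23.4 CPM in mK3 (adjusted p = 3.3e-05 for both; SD, n = 3 each). The collagenase gene Mmp13 was higher in mK4 with a log2 fold change of 1.65, while Mmp3 had 101, 68 and 0 counts in mK4, against 3909, 3514 and 3552 in mK3. Ereg was at 0 in all mK4 libraries and at least 245-fold lower there. Across all promoter windows, tested genes with TGANTCA in the window, 822 in number, had a median log2 fold change of 0.01 and the 11082 without it 0.05.

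**Figure D5:**
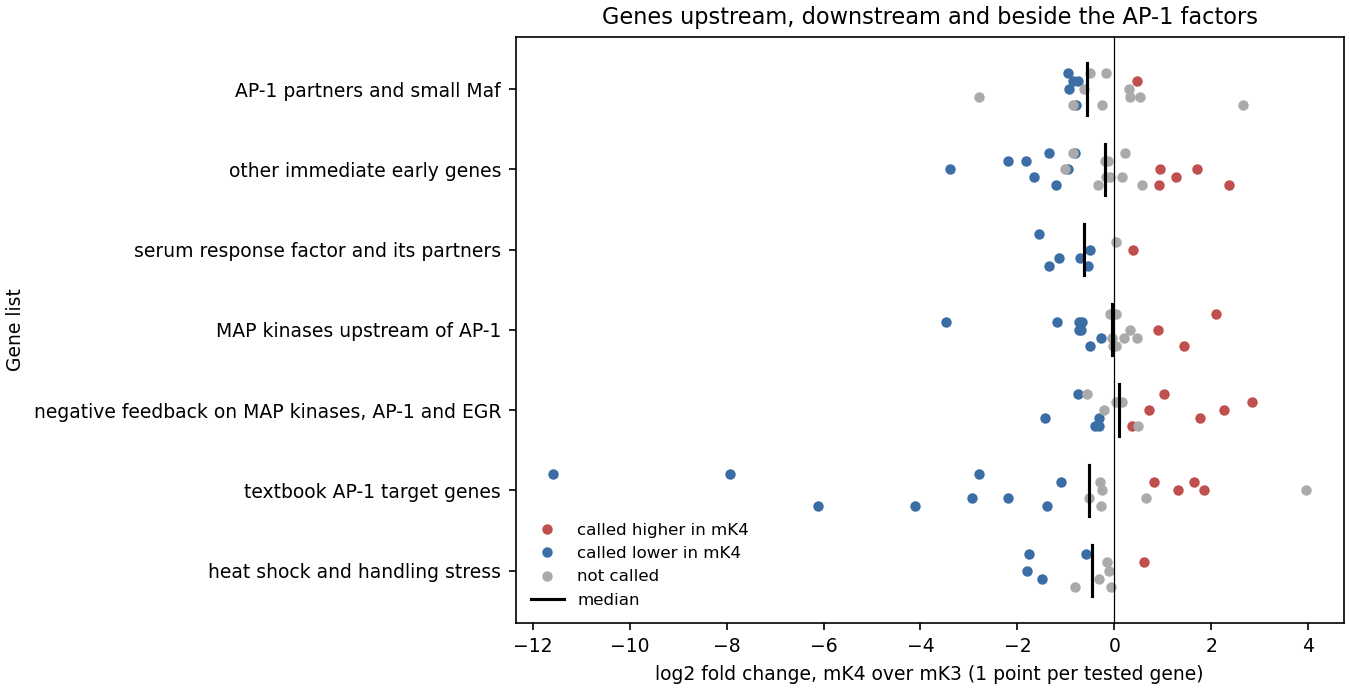
Log2 fold change, mK4 over mK3, of each tested gene of the 7 lists, coloured by call, with the median of each list as a bar; Mapk10 and Ereg, at 0 in mK4, are drawn at their bound. Each list holds genes called in both directions, and the medians lie between -0.62 and 0.10.

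The lines differ in more than these factors. The library totals ran from 137559391 to 152952351 counts. Of 11 mesenchyme and stroma markers, all tested, 10 were lower in mK4 and 1, Vim, was higher; their summed level was 292 to 310 CPM in mK4 and 4232 to 4698 CPM in mK3, and Twist1 was at 0 in mK4. Of 11 markers of induced nephron and renal epithelium, 5 were tested and all 5 were higher, with summed levels of 1759 to 1843 CPM in mK4 and 0.756 to 1.97 CPM in mK3. Epcam, Krt18, Cldn3 and Cldn7, defining genes of simple epithelium, were at 0 in all mK4 libraries, so the label held for early nephron genes such as Cdh6 and Pax8 and not for these. Of 10 metanephric mesenchyme markers, 7 were tested, 3 higher and 2 lower. Their summed level was 221 to 285 CPM in mK4 and 41.6 to 43.9 CPM in mK3. In all mK3 libraries 4 of the 10 were at 0, Pax2 and Sall1 among them. Eya1 had 187 ± 31.1 CPM in mK4 and 10.1 ± 0.818 CPM in mK3 (SD, n = 3 each). The mK3 label was thus not borne out by Pax2, Sall1 and Eya1, while Osr1 and Six2 were the 2 lower in mK4. Six2 was barely detected in mK3, at 59, 15 and 61 counts and a mean of 0.338 CPM, and was at 0 in mK4. Endothelial markers summed to 7.37 to 8.17 CPM in mK4 and 3.48 to 4.63 CPM in mK3, with 4 of 5 tested, 1 higher and 2 lower, and leukocyte markers to 1.87 to 3.30 CPM in mK4 and 1.08 to 1.84 CPM in mK3, with 3 of 6 tested and 1 higher. Of 10 heat shock genes, which rise when cells are stressed, 1 was higher, 4 lower and 5 not called, with a median of -0.46. The part of cell state and of stress in the members' differences was not tested.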

How the data were processed

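RNA libraries, 3 of mK4 and 3 of mK3, and 1 ATAC-seq library of each line were analysed. Per the labels, RNA was depleted of ribosomal RNA and libraries were strand-specific. The authors deposited raw read counts (whole numbers) for each feature, and, per the column order of the peak lists, a fold enrichment (a ratio) and a -log10 q for each peak. A peak score the authors deposited beside them was not used. Build mm10 and the tools MACS3, deepTools, bedtools, HTSeq 2.0.2, SAMtools, STAR 2.7.10a and Bowtie2 are named in the submitters' processing notes, with no roles. Whether counting used strand is not stated in any source used.

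Gene counts, 133899125 to 146187601 per library, were tested as deposited with edgeR 4.0.16 in R 4.3.3 (filterByExpr, TMM, robust quasi-likelihood test, Benjamini-Hochberg adjustment over 20405 genes, calls at 0.05). No value column of the table was left unused for lack of a label. CPM are counts scaled to library size after TMM. SE is the absolute log2 fold change over the square root of F, and 95% intervals use the t quantile of the same fit. Where a line had 0 counts, the fold was bounded with 3 counts per library. DESeq2 1.42.0, other scalings and filters, a replicate block and leaving out each library were alternatives. Replicate numbers did not pair the libraries. The steps were tested on simulated data, in which changed genes with few counts were often missed.

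Peaks counted as shared at 1 bp of overlap, in Python 3.11.15 with pandas 2.3.3 and NumPy 2.4.6. Starts, gene positions and sequences came from RefSeq tables for GRCm38.p6, which is mm10. The members and the gene lists were chosen with earlier results of these data known. Named genes were all members, up to 2 genes per direction of each list with the smallest adjusted p, and the 3 protein-coding genes most like each member; others named were chosen after their values were seen.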

Additional observations from a re-analysis of the deposited data

How the results depend on the processing

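All 6 called members kept their direction and their call in every alternative that tested them, with adjusted p of at most 0.0154 for Atf3 and 0.0200 for Maff, and the uncalled 4 were called in none. With at least 1 CPM asked of all 6 libraries, 8 members were tested and 1 was higher, because Fos and Fosb dropped out. Scaling by library total alone shifted the median log2 fold change of all genes to 0.13, against 0.02, gave Fosl1 0.022 and left 2 negative feedback genes lower. Leaving out 1 library put Fosl1 between -0.25 and 0.11 (0.001 without mK3 library 3) and Egr1 between -0.61 and 0.16. Leaving out each library in turn gave 3446 to 3896 genes higher and 3388 to 3607 lower, and 3 and 3 members each time.

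The replicate numbers did not pair the libraries: deviations of same-numbered libraries correlated at -0.0191, 0.0207 and 0.00673. With the number as a replicate block, 3 members were higher and 3 lower, as without it, and 3281 genes were higher and 3129 lower.

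Peaks with a -log10 q of at least 10 left 8 members with a start peak in both lines, and a limit of 5 kb gave all 10. With 1 ATAC library of each line, depth and the absence of a peak cannot be told apart. Low counts limit Fosb in mK3, at 18 to 39 counts.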
